A study of Mus musculus with 15 samples.

Results

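The genes described here carry symbols used for proteins of the splicing machinery and its regulators. The families are the SR proteins (Srsf genes), the heterogeneous nuclear ribonucleoproteins (Hnrnp genes) and proteins of the U2 and other small nuclear ribonucleoproteins (Sf3 and Snrnp genes). Also taken were precursor-RNA processing factors (Prpf genes) and RNA-binding motif proteins (Rbm genes whose symbol continues with a digit). Some Rbm proteins are known for other roles, such as Rbm26 in RNA decay and Rbm15 in RNA methylation. The name splicing protein transcripts is used here for all of these genes. Members were chosen by these symbol prefixes, without Rbm20, and by having at least 1 SAM68 binding site in any of the deposited lists. This gave 72 of 7949 genes with a site, namely 8 Srsf, 19 Hnrnp, 7 Sf3, 5 Snrnp, 12 Prpf and 21 Rbm genes. The choice used no measured level and no difference between days.

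SAM68, the product of Khdrbs1 and a STAR protein with a KH domain, was mapped on RNA in the mouse embryonic stem cell line E14 by iCLIP2, a method in which ultraviolet light fixes protein to RNA and reverse transcription stops at the crosslink. Day 0 cells were undifferentiated and kept with leukemia inhibitory factor and the inhibitors of GSK3 and MEK known as 2i. Differentiating aggregates, called embryoid bodies, were collected on day 3 from hanging drops and on day 10 from spheroid microplates, so that day and culture format cannot be told apart, and were dissociated before irradiation. All cells were of 1 unmodified line and were precipitated with an antibody against SAM68, with 5 libraries per day and 15 in all. The deposited values were 1 list for each day, with sites of 5 nt, and held no value for a single library.

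SR proteins and hnRNPs bind precursor RNA and promote or repress the use of nearby splice sites, while the small nuclear ribonucleoproteins recognise splice sites and form the spliceosome. Many of these proteins bind their own transcripts and those of their relatives. Several of their genes hold conserved alternative exons whose inclusion leads to decay of the mRNA. SAM68 binds short sequences rich in A and U, and is itself a regulator of alternative splicing.

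The lists of days 0, 3 and 10 held 29740, 28266 and 74287 sites in 5056, 5034 and 6345 genes. Library depth is unknown because the lists hold called sites without crosslink counts, and the spread between libraries cannot be measured, so no test between days was made. The share of a gene is the fraction of all sites of a list that lie in it, and a ratio of shares compares 2 days. Intervals are exact 95% binomial intervals, cover counting error only and treat sites within a gene as independent, which they are not. In the lists, 5 transcripts that mark naive stem cells (Esrrb, Nr5a2, Tfcp2l1, Zfp42 and Nanog) had 150 sites on day 0, 8 on day 3 and 1 on day 10, and 5 of heart and mesoderm (Gata4, Gata6, Tbx20, Ryr2 and Ttn) held 0, 4 and 312. Another 3 transcripts (Robo2, Slit2 and Zeb2) held 2, 0 and 235. They were listed here as neural, without a check that they are specific to neural cells. The part of changes in cell types in the results below was not tested. RNA abundance was not used here, and in these bulk lists fewer cells of a type and less RNA per cell cannot be told apart.

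Sequence could be read for the 5 member sites that fell in a RefSeq promoter window (GRCm38.p6), and these are shown because they place single binding sites beside annotated transcription starts. Each line runs 5′ to 3′ on the transcribed strand and the capitals mark the 5 nt of the deposited site.
Srsf5, chr12:80945518-80945546, plus strand: ccgagctgctaaGTGCGtcagttgtggag
Hnrnpc, chr14:52103987-52104015, minus strand: gctcgggggccaTTTTGtgaggagacgga
Hnrnpd, chr5:99976492-99976520, minus strand: attttatttctgTCTTAtaaagatttcag
Rbm25 first site, chr12:83635658-83635686, plus strand: ttctttaaaaaaAATTAttatttatatga
Rbm25 second site, chr12:83635665-83635693, plus strand: aaaaaaattattATTTAtatgagtacaca
The Srsf5 site was listed on all 3 days, and its centre lay 33 nt after the start used in the promoter table, which is not the outermost start of the gene span. The Hnrnpc site was listed on day 3 and day 10 and lay 20 nt after the start. The Hnrnpd site was listed on day 0 and came from the window of the overlapping entry Gm42127, whose start it followed by 21 nt. Both Rbm25 sites were listed on day 10, 38 and 31 nt before a RefSeq start, inside the longer Rbm25 span. The letters TTAA or TAAA, the core that SAM68 is known to bind when read as RNA, were searched on the transcribed strand only, and a window with both was counted once. They were present in 2 of 5 member windows (40%), in the Hnrnpd window and the first of Rbm25, and in 35 of 228 windows around sites of other genes (15.4%). Of all 197106 windows of the same length in the promoter table, 12.7% held them. A match is a description of the letters, and 5 windows are few.

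Together, the members held 466, 440 and 841 sites on days 0, 3 and 10, which is 157, 156 and 113 per 10000 sites of each list. The share of sites in these transcripts was thus smallest on day 10. The ratio of shares was 0.723 for day 10 over day 0 (0.644 to 0.811), 0.727 for day 10 over day 3 (0.647 to 0.818) and 0.993 for day 3 over day 0 (0.870 to 1.13). The 3 comparisons share their lists in pairs. Because the day 10 list was 2.50 times as long as the day 0 list, the number of member sites was still 1.80 times as high on day 10.

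The smaller day 10 share was also found in other genes with a span of at most 50 kb, and not in longer other genes. Members were short, with a median RefSeq span of 21.1 kb against 37.4 kb for other named protein-coding genes. Other protein-coding genes with a span of at most 50 kb (4208 genes) had a ratio of 0.738 for day 10 over day 0 (0.719 to 0.757), while all 7073 other named protein-coding genes had 1.04. For the 62 members with a span of at most 50 kb, scaled by the sites in those other short genes, the ratio was 0.949 for day 10 over day 0 (0.827 to 1.09) and 0.895 for day 10 over day 3 (0.778 to 1.03), and both intervals include 1. The 10 members with a span over 50 kb had a ratio of 0.772 for day 10 over day 0 (0.628 to 0.953). The 2865 other named protein-coding genes over 50 kb had 1.196 (1.176 to 1.216). The part of gene length in the smaller share was not tested. A further list of 63 splicing genes, among them Srrm2, Tra2b, U2af2, Sfpq and Ptbp1, had sites in 55, with 491, 461 and 948 sites and a ratio of 0.773 for day 10 over day 0 (0.692 to 0.864). Of these, 37 reached 10 sites in both lists together, with a ratio of at least 2 in 3 genes and of at most 0.5 in 5, against 34.3% and 24.3% of 2360 named genes with as many sites.

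**Figure D1:**
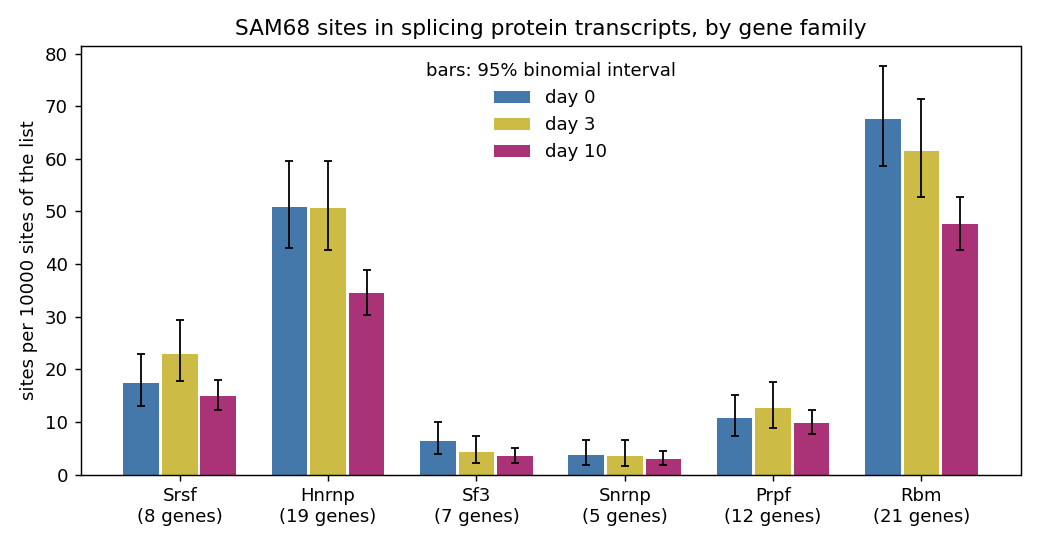
Sites in each gene family per 10000 sites of the lists of days 0, 3 and 10 (bars, with exact 95% binomial intervals). The Rbm and Hnrnp families hold most sites, and in both the day 10 bar is the lowest, at 47.5 and 34.5 per 10000.

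By family, the Rbm genes held 201, 174 and 353 sites on days 0, 3 and 10 and the Hnrnp genes 151, 143 and 256. In both families the day 10 share was smaller, with ratios of day 10 over day 0 of 0.703 for Rbm (0.590 to 0.840) and 0.679 for Hnrnp (0.553 to 0.836). The Srsf genes held 52, 65 and 111 sites, of which 10, 21 and 30 lay in Srsf10. Their highest share was on day 3, with a ratio of 0.650 for day 10 over day 3 (0.474 to 0.897), while day 10 over day 0 gave 0.855 (0.609 to 1.21) and day 3 over day 0 gave 1.32 (0.899 to 1.93). Sf3 genes held 19, 12 and 26 sites, with 0.548 for day 10 over day 0 (0.292 to 1.05). Prpf genes held 32, 36 and 73, with 0.913 (0.595 to 1.43), and Snrnp genes 11, 10 and 22, with 0.801 (0.372 to 1.83). For these 3 small families the intervals include 1, so a difference was not detectable at these site numbers. The plot of sites by family shows the same values scaled by list length.

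Srsf and most Hnrnp transcripts were densely bound for their length. The median over members was 6.37 sites per 10 kb of RefSeq span, all 3 lists summed, against 1.82 for other named protein-coding genes. Only genes with a site enter either median. The density differed between families, with medians of 27.7 in Srsf genes and 22.1 in Hnrnp genes. Medians were 3.31 in Sf3, 3.08 in Rbm, 2.17 in Prpf and 2.15 in Snrnp genes, within the quartiles of other named protein-coding genes (0.696 to 4.46). Density was not compared with short genes or with other splicing genes. Srsf6 reached 53.4 sites per 10 kb, Srsf5 47.9, Srsf10 43.1 and Rbm39 41.5, while Rbm genes as a family ran from 0.121 to 41.5. Transcript abundance was not set against these densities.

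**Figure D2:**
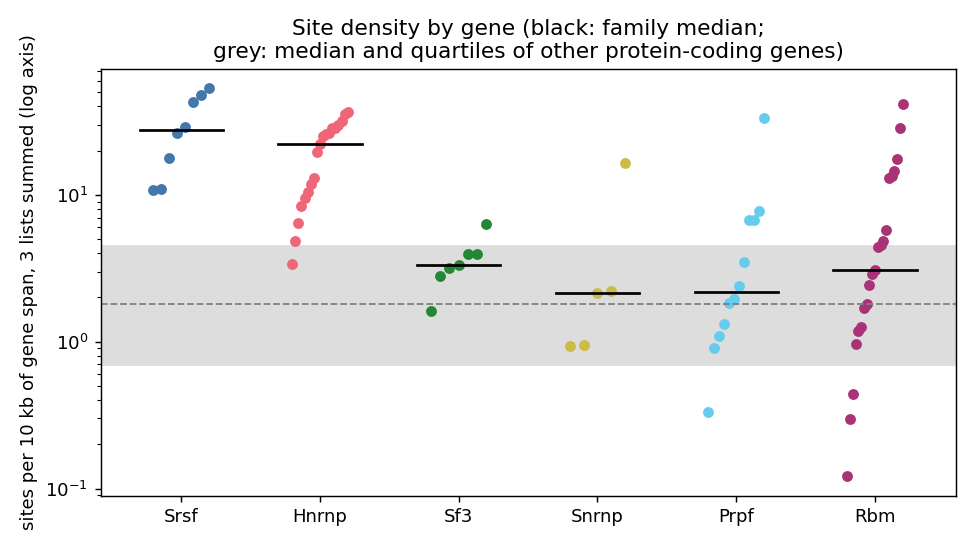
Sites per 10 kb of RefSeq gene span, 3 lists summed (log axis), for each of the 72 genes (points) by family, with family medians in black and the median and quartiles of other protein-coding genes in grey. All 8 Srsf genes and most Hnrnp genes lie above the grey band, whose median is 1.82.

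Sites were concentrated in a few transcripts. Rbm25, Rbm6, Rbm39, Rbm26 and Hnrnpc together held 645 of 1747 member sites (36.9%), and the 10 transcripts with most sites held 52.9%. At the other end, 29 members had fewer than 10 sites over the 3 lists and held 97 sites in all. In each list a bound member had more sites than a bound gene in general, with medians of 4, 6 and 7.5 sites on days 0, 3 and 10 against 2, 2 and 4.

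Most members were bound on every day. A site was listed on all 3 days in 51 of 72 members (70.8%), against 41.4% of all genes with a site. Members present on 1 day only had at most 4 sites. They were Prpf40b, Rbm18, Rbm24, Snrnp200 and Snrnp27 on day 10, Snrnp35 on day 3, and Prpf18, Prpf4, Rbm10, Rbm19 and Sf3a2 on day 0. These made up 6.94% of members for day 10, 1.39% for day 3 and 6.94% for day 0. Among all genes with a site the shares were 20.2%, 6.26% and 8.18%, so the day 0 share was near that of all genes. Rbm24, a splicing regulator of heart and skeletal muscle, had 4 sites on day 10 and none on the other days. Genes with more sites are listed on more days by number alone, and this was not adjusted for.

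At the level of single genes, 37 members reached 10 sites when the lists of day 10 and day 0 were added. Of these, 3 had a ratio of shares of at least 2 for day 10 over day 0 and 8 a ratio of at most 0.5. Among 2360 named genes with as many sites, 34.3% were that much larger and 24.3% that much smaller. The 8 smaller of 37 members were thus near the share of named genes. The members' median ratio was 0.801 against 1.1 over all named genes, or on the log2 scale with 1 site added to each count -0.40 against 0.00. The ratio lay below 1 for 24 of 37 members (64.9%), against 45.3% of all named genes.

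**Figure D3:**
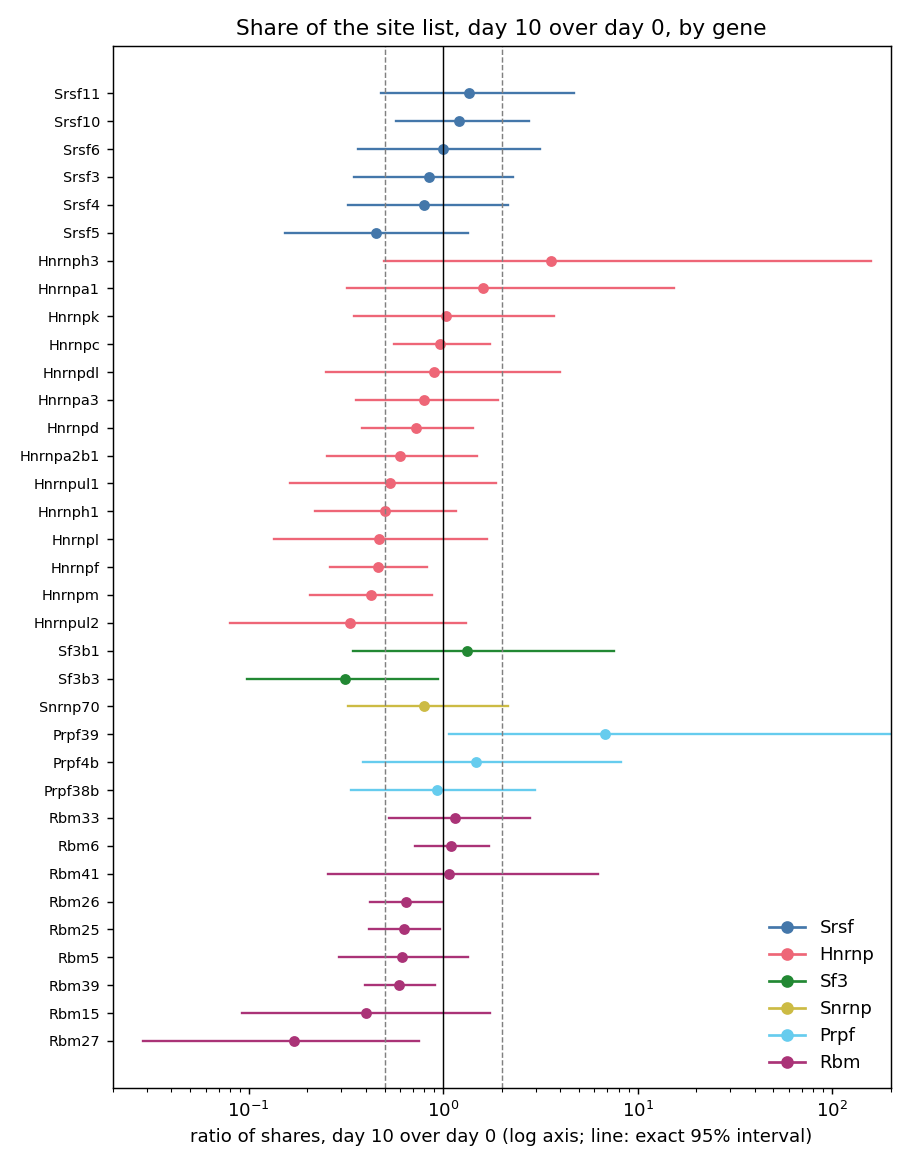
Ratio of shares, day 10 over day 0 (log axis), for the members with at least 10 sites over both lists, with exact 95% intervals and dashed lines at 0.5 and 2. Hnrnpll, which has no day 0 site, and 1 Prpf gene are not drawn, and the interval of Prpf39 runs beyond the axis to 284. Most points lie between the dashed lines, with Rbm27 lowest at 0.172 and Prpf39 highest at 6.81.

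Among the SR protein genes, which encode splicing factors with arginine- and serine-rich domains, Srsf10 had the most sites. Srsf10 (chr4:135855752-135869908), a splicing repressor when dephosphorylated, held 10, 21 and 30 sites on days 0, 3 and 10. Its share was 2.21 times as large on day 3 as on day 0 (0.996 to 5.25), and 0.544 times as large on day 10 as on day 3 (0.301 to 0.999). Srsf5 (chr12:80945495-80950507) held 8, 7 and 9 sites, and with the longer day 10 list its ratio was 0.450 for day 10 over day 0 (0.154 to 1.34), an interval that includes 1. For day 10 over day 3 it was 0.489 (0.162 to 1.55).

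The other SR protein genes varied among themselves. Srsf3, the smallest of the classical SR proteins, held 8, 6 and 17 sites, and its ratio for day 10 over day 0 was 0.851. Srsf4 held 8, 7 and 16 sites, with 0.801. Srsf6 held 6, 9 and 15 sites, with 1.00. Each of these intervals includes 1. Srsf11 held 5, 6 and 17 sites, with 1.36 (0.482 to 4.72). Srsf7, an SR protein with a zinc knuckle, held 2, 6 and 5 sites, a ratio of 0.317 for day 10 over day 3 (0.0766 to 1.25). Srsf2 (SC35), a constituent of nuclear speckles, had its largest number on day 0, with 5, 3 and 2 sites, too few over any pair of lists for a call, and 0.160 times the day 0 share on day 10 (0.0152 to 0.978).

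Among the hnRNP genes, Hnrnpc (chr14:52073377-52104039), which encodes a protein that binds runs of U, had the most sites, with 19, 23 and 46 on days 0, 3 and 10. Its ratio of shares was 0.969 for day 10 over day 0 (0.557 to 1.75). Hnrnpd, known as AUF1 for its binding to AU-rich elements, held 16, 16 and 29 sites and 0.726 times the day 0 share on day 10 (0.381 to 1.43). Hnrnpa3 held 10, 8 and 20 sites, with a ratio of 0.801. The ratios of these 3 genes all have intervals that include 1. Hnrnph1 held 12, 9 and 15 sites and a ratio of 0.5004 for day 10 over day 0 (0.219 to 1.17), just outside the limit for a call. Hnrnpa2b1 held 10, 9 and 15 sites, and Hnrnpk, which binds runs of C, 5, 6 and 13, with ratios of 0.601 and 1.04.

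Of 15 hnRNP genes compared between day 10 and day 0, 11 (73.3%) had a ratio below 1, against 45.3% of 2360 named genes. Hnrnpf, Hnrnpm, Hnrnpl and Hnrnpul2, 4 of the 15, were at most 0.5, which is near the 24.3% of named genes. Hnrnpf (chr6:117900340-117925622), whose protein binds G runs, held 29 sites on day 10 against 25 on day 0, a ratio of shares of 0.464 (0.263 to 0.827), with 18 sites on day 3. Hnrnpm (chr17:33646233-33685458), a splicing regulator that binds GU-rich sequence, held 18 sites on day 10 and 6 on day 3, against 17 on day 0. Its share was 0.424 times the day 0 share on day 10 (0.206 to 0.875) and 0.371 times on day 3 (0.12 to 0.987), which made it the 1 member at or below 0.5 in the comparison of day 3 with day 0. Hnrnpl, which binds CA repeats, held 6, 5 and 7 sites, with 0.467 for day 10 over day 0 (0.134 to 1.68). Hnrnpul2 held 6, 3 and 5, with 0.334 (0.0805 to 1.312). The last 2 intervals include 1.

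The ratio was above 1 in the other 4, counting Hnrnpll, which had no day 0 site. It was past 2 in Hnrnpll and Hnrnph3, 2 of the 15, against 34.3% of named genes. Hnrnpll (chr17:80029487-80062268), known as a regulator of alternative splicing in lymphocytes, held 0, 7 and 14 sites. It was the 1 member with no site on 1 day and at least 10 on another, and its ratio against day 0 has no upper bound and is not given. Hnrnph3 (chr10:63014664-63023980) held 1, 1 and 9 sites, a ratio of 3.60 for day 10 over day 0 (0.499 to 158) and 3.42 for day 10 over day 3 (0.474 to 150.1). These intervals are wide because a single site stands in each earlier list.

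Against day 3, ratios of at most 0.5 for day 10 were found in 3 of 16 hnRNP genes, Hnrnpab, Hnrnpu and Hnrnpa1. Of 2281 named genes, 21.2% were as low. Hnrnpab, a protein that binds AU-rich RNA, held 3, 7 and 5 sites on days 0, 3 and 10, which gave 0.272 for day 10 over day 3 (0.0680 to 0.995) and 2.46 for day 3 over day 0 (0.560 to 14.7). Hnrnpu, also named scaffold attachment factor A, held 4, 7 and 4 sites, with 0.217 for day 10 over day 3 (0.0467 to 0.855). Hnrnpa1, a repressor of exon inclusion, held 2, 7 and 8, with 0.435 (0.138 to 1.41). In all 3 genes the day 3 list thus held the largest share.

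Sf3 genes encode subunits of the U2 complexes that recognise the branch point. Sf3b3 (chr8:110810491-110846806) held 9, 7 and 7 sites on days 0, 3 and 10, with ratios of 0.311 for day 10 over day 0 (0.0985 to 0.940) and 0.380 for day 10 over day 3 (0.114 to 1.27). Sf3b1, the subunit that holds the branch helix, held 3, 1 and 10 sites, with 3.80 for day 10 over day 3 (0.541 to 165) and 1.33 for day 10 over day 0 (0.344 to 7.55). The remaining members of the family stayed below 10 sites, with 7 in Sf3a1, 6 in Sf3b2, 4 in Sf3b6, 2 in Sf3b4 and 1 in Sf3a2. Among Snrnp genes, Snrnp70, the U1 protein that contacts the U1 RNA, was the 1 gene with at least 10 sites. It held 8, 8 and 16, a ratio of 0.801 for day 10 over day 0 (0.323 to 2.16). Snrnp48, Snrnp200, Snrnp27 and Snrnp35 held 5, 3, 2 and 1 sites over the 3 lists.

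In the Prpf family, Prpf39 (chr12:65036334-65063386), whose yeast counterpart belongs to the U1 particle, had the largest finite ratio among the members compared between day 10 and day 0. It held 1, 3 and 17 sites on days 0, 3 and 10, which gave 6.81 for day 10 over day 0 (1.07 to 284) and 2.16 for day 10 over day 3 (0.624 to 11.5). Prpf4b, a kinase of the spliceosome, held 3, 7 and 11 sites, with 2.46 for day 3 over day 0 (0.560 to 14.7). Prpf38b held 6, 10 and 14 sites, and its ratios lay between 0.5 and 2 in every pair of days. Prpf6, a protein of the U5 particle, held 2, 3 and 5, too few for a call. Prpf8, which encodes the protein at the catalytic centre of the spliceosome, had 3 sites.

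The Rbm genes were led by Rbm25, Rbm6, Rbm39 and Rbm26. Rbm25 (chr12:83632208-83683127), a factor that acts with the U1 particle on alternative splice sites, held 40, 43 and 63 sites on days 0, 3 and 10. Rbm39 (chr2:156147239-156180238), a relative of U2af2 and a splicing coactivator, held 41, 35 and 61. Rbm26 (chr14:105106751-105181039), which takes part in nuclear RNA decay in human cells, held 38, 31 and 61. All 3 had smaller shares on day 10 than on day 0 without reaching 0.5, with ratios of 0.631 (0.418 to 0.962), 0.596 (0.394 to 0.908) and 0.643 (0.422 to 0.991). Rbm6 (chr9:107773559-107873358) differed from them with 31, 28 and 85 sites and a ratio of 1.1 (0.720 to 1.71). Its neighbour on the same strand, Rbm5, with which it shares a role in exon choice, held 13, 8 and 20 sites, with 0.616 (0.292 to 1.35). The difference between such ratios was not tested.

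Among the Rbm genes with fewer sites, Rbm27 (chr18:42275205-42341542), a relative of Rbm26, held 7, 2 and 3 sites, with the lowest ratio of the called genes at 0.172 for day 10 over day 0 (0.0286 to 0.752). Rbm15, a subunit of the complex that methylates adenosine in mRNA, held 5, 4 and 5, with 0.400 (0.0921 to 1.74). Rbm33 held 9, 10 and 26 sites and Rbm41 3, 2 and 8, and neither was called in a pair of days. Rbm28 held 4, 2 and 4, too few for a call.

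Counting only genes whose exact interval excludes 1, 2 of 37 members had a larger day 10 share than day 0 share, against 22.7% of named genes. These were Hnrnpll and Prpf39. A smaller day 10 share was counted for 7 of 37 members, which is near the 18.4% of named genes. They were Hnrnpf, Hnrnpm, Rbm25, Rbm26, Rbm27, Rbm39 and Sf3b3.

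For day 3 over day 0, 29 members had at least 10 sites over both lists, and 3 had a ratio of at least 2 (Srsf10, Hnrnpab and Prpf4b, against 19.6% of 1526 named genes). Hnrnpm was the 1 member at most 0.5, against 19.9% of named genes. By the interval, no member was larger (12.3% of named genes) and 1 was smaller (13.5%). The median ratio was 0.95, against 1.05 for all named genes. For day 10 over day 3, 37 members were compared, with 3 at least 2 (Hnrnph3, Prpf39 and Sf3b1, against 29.2% of 2281 named genes) and 6 at most 0.5 (Hnrnpa1, Hnrnpab, Hnrnpu, Sf3b3, Srsf5 and Srsf7, against 21.2%). By the interval, none was larger (17.8% of named genes) and 4 were smaller (15.3%). The ratio lay below 1 for 28 of 37 members, against 48.2% of all named genes.

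A larger share of single sites was listed again on another day in members than in other protein-coding genes. A site counted as found again when it shared at least 1 nt with a site of another list on the same strand. Of member sites, 209 of 466 day 0 sites (44.8%), 199 of 440 day 3 sites (45.2%) and 262 of 841 day 10 sites (31.2%) were found again, against 31.1%, 33.1% and 15.2% in other protein-coding genes. Other genes with a span of at most 50 kb gave 33.6%, 36.6% and 21.1%, and the further list of splicing genes 43.2%, 41.9% and 27%. The comparison rests on counting intervals alone, which for members ran from 40.3% to 49.5% on day 0, 40.5% to 50.0% on day 3 and 28.0% to 34.4% on day 10. Among genes with at least 5 sites per 10 kb, 38 members gave 48.4%, 46.4% and 33.0%, against 36.0%, 38.2% and 17.6% in 1604 others. The difference was thus also present above this floor. Members and others were not matched in density above the floor, so the part of density in the difference was not tested. For an identical 5 nt position, the shares were 22.5%, 21.8% and 14.3%, against 15.3%, 16.5% and 7.28%.

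**Figure D4:**
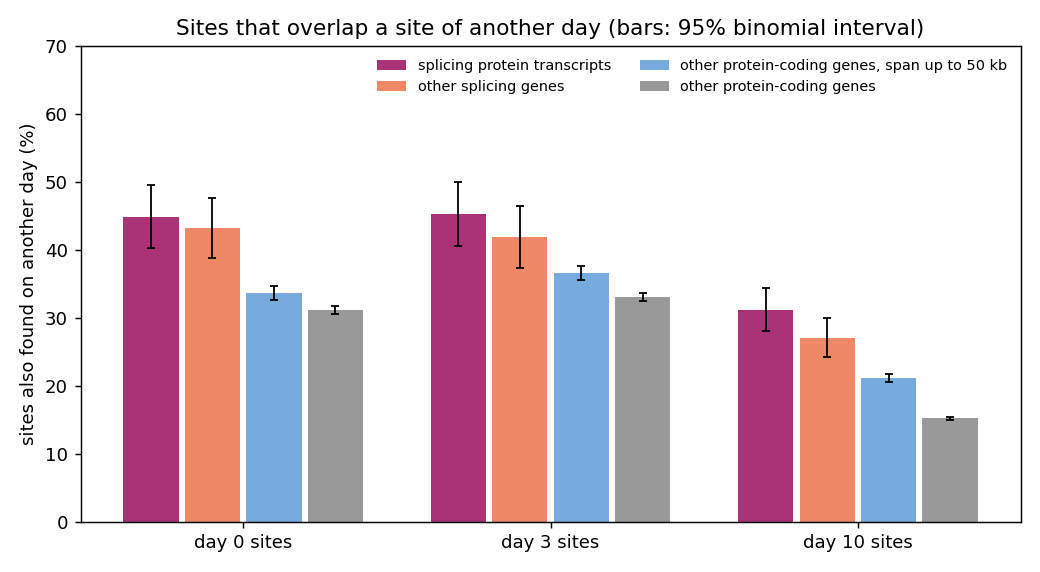
Percent of the sites of each day that overlap a site of another day, for the 72 splicing protein transcripts, other splicing genes, short protein-coding genes and other protein-coding genes, with exact 95% binomial intervals. The splicing protein transcripts stand at 44.8%, 45.2% and 31.2% and the other protein-coding genes at 31.1%, 33.1% and 15.2%.

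Among families with more than 50 sites in each list, the share of day 0 sites found again was 59.6% in Srsf genes (45.1% to 73.0%), 48.3% in Hnrnp genes (40.1% to 56.6%) and 45.3% in Rbm genes (38.3% to 52.4%). In Prpf genes it was 21.9% of 32 sites (9.28% to 40%). Prpf4b with 21 sites and Hnrnph3 with 11 had none found again, although both had sites on every day.

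Of the day 0 sites, 79 (17.0%) overlapped a site on both other days, against 9.85% in other protein-coding genes, and they lay in 28 members. In 29 of the 79 the centre was identical on all 3 days (36.7%). Rbm39 held 14 such positions, Rbm25 and Rbm26 10 each, Hnrnph1 4, and Hnrnpc, Hnrnpd, Rbm5, Rbm6 and Srsf5 3 each. A further 7 members, among them Hnrnpa3, held 2 each. In Rbm39 they lay 1.80 to 13.2 kb from the 5′ end of the span, except 1 at 23.6 kb. The Rbm39 day 0 sites at 156176809 and 156176814 overlapped the same day 3 site. Within Srsf5, identical centres at 80945532 and 80945595 of chromosome 12 lay 0.037 and 0.1 kb from the 5′ end of the RefSeq gene span, and the first of these is the site printed above. Hnrnph1, which encodes a G-run binding splicing regulator, had identical centres at 50380039 and 50380047 of chromosome 11, near the middle of the gene at 42.4% and 42.5% of its length. Srsf6 had 1, at 162932550 of chromosome 2.

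Along the genes, member sites were spread over the whole span. With the span cut in equal parts from the 5′ end, the first, middle and last part held 28.6%, 37.4% and 34.0% of all member sites, against 34.9%, 32.5% and 32.6% in other named protein-coding genes and 29.6%, 30.7% and 39.7% in those with a span of at most 50 kb. The middle part held 39.5%, 36.1% and 37.0% on days 0, 3 and 10, with intervals of 35% to 44.1%, 31.6% to 40.8% and 33.7% to 40.3%, which overlap. No exon annotation of this build was used, so sites were not divided into exons, introns and untranslated regions. The authors removed sites in overlapping genes, and 24 of the 72 members overlap another RefSeq gene. A stretch of a gene without a listed site thus does not show absence of binding. Positions, also those by family, and the windows below were not adjusted for this.

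The pooled position of listed sites varied by family. Over all days, the first part held 18.5% of sites in Hnrnp genes, 28.1% in Srsf genes and 36.4% in Rbm genes. The last part held 39.1% in Hnrnp, 35.5% in Srsf, 45.4% in Prpf and 27.1% in Rbm genes. Of the pooled Hnrnp sites, the first part held the smallest share on each day, at 19.2%, 18.2% and 18.4%. The lists share recurring sites, so the 3 days are not independent. Single Hnrnp genes differed, with the median site at 38.4% of the span in Hnrnpa2b1 and 85.1% in Hnrnpul2. Of Srsf sites, 51.3% lay within 5 kb of the start, which in these genes, with a median span of 9.0 kb, covers much of the gene.

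**Figure D5:**
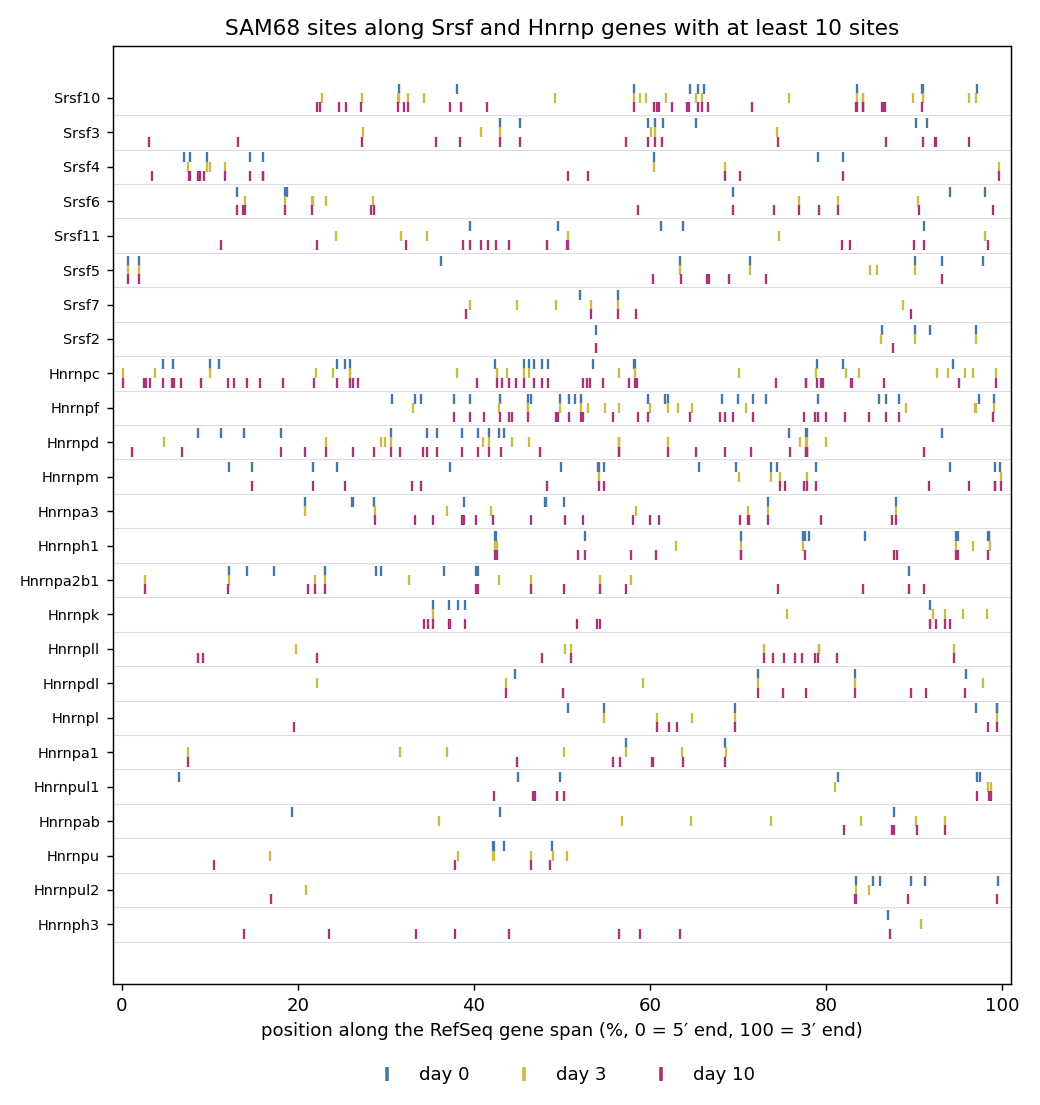
Position of each SAM68 site along the RefSeq span (0 at the 5′ end, 100 at the 3′ end, in %) for Srsf and Hnrnp genes with at least 10 sites, with the 3 days on separate rows of ticks. Srsf6 and Srsf4 have a cluster near the 5′ end, Srsf2 and Hnrnpul2 have most ticks beyond 80%, and columns of ticks mark positions listed on several days.

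Sites within genes were also described by the densest short window. The densest 500 nt window of each of the 43 members with at least 10 sites held a median of 23.1% of the gene's sites, from 4.86% in Rbm6 to 80% in Srsf2, and in 21 members it held at least 25%. In 36 of 43 the window had sites on all 3 days. As the window was picked for its number of sites over the 3 lists summed, a position listed on every day weighs more in it. The shares and the number of windows with sites on all 3 days are thus descriptions, without other genes beside them. The centre of the window lay in the last part of the span in 19 members, the first in 13 and the middle in 11.

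In Srsf2, 8 of 10 sites fell at chr11:116850009-116850416, about 0.37 kb from the 3′ end of the gene, with 4, 3 and 1 on days 0, 3 and 10. Srsf6 had 12 of 30 sites at chr2:162932241-162932730, about 1.04 kb after the start, with 3, 4 and 5. In Srsf7, 7 of 13 sites lay at chr17:80203111-80203574, near the middle of the gene, with 2, 2 and 3. Srsf5 had 9 of 24 at chr12:80948675-80949161, and Srsf3 9 of 31 at chr17:29038790-29039240. The windows of Srsf2, Srsf6 and Srsf7 thus held sites on every day, at both ends or the middle of these short genes.

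Among Hnrnp genes, Hnrnpul2 had 7 of 14 sites at chr19:8831670-8832088, Hnrnpab 7 of 15 at chr11:51600541-51600951 and Hnrnpa1 7 of 17 at chr15:103243763-103244248. The window of Hnrnph1, with 10 of 36 sites at chr11:50385932-50386373, lay about 0.47 kb from the 3′ end, and that of Hnrnpl, with 6 of 18 at chr7:28821861-28822188, about 0.09 kb from it. Hnrnpk had 9 of 24 sites at chr13:58398576-58399019. This gene also hosts the hairpin of miR-7 (Mir7-1), and its nearest site lay 639 nt from that hairpin, with 7 sites within 1 kb. Prpf38b, a spliceosome protein of the PRP38 family, had 8 of 30 sites at chr3:108910574-108910946, about 0.94 kb after the start.

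Neighbouring sites of a gene were nearer each other in members, with median gaps of 732, 700 and 430 nt on days 0, 3 and 10, against 1503, 1832 and 782 nt in other protein-coding genes and 959, 1074 and 575 nt in those of at most 50 kb. The number of sites per 10 kb was not adjusted for in these gaps. Gaps within 50 nt were not more common in members, at 5.45%, 4.71% and 9.78%, than in other genes of at most 50 kb, at 6.94%, 6.16% and 10.0%. Merging sites within 50 nt left 1.05, 1.04 and 1.1 sites per cluster in members, so most member sites stood alone at that distance. The same short genes gave 1.05, 1.04 and 1.09.

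Of 98 RefSeq protein-coding genes that fit the symbol rule, 26 were not members. They include Srsf1, Srsf9, Rbm4 and Rbm14. As the authors removed sites in overlapping genes, and 10 of the 26 and 24 of the 72 members overlap another RefSeq gene, absence of a gene or a low number does not show absence of binding. The deposited gene Gm21992, whose span overlaps Rbm4, Rbm4b and Rbm14, held 45, 20 and 57 sites and was not counted. Hnrnpr had 23, 15 and 40 sites with 67.9% inside its RefSeq span, below the 80% asked for a name, and was not counted either.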

How the data were processed

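The 3 deposited lists give, per the file headers, sites assigned to genes after removal of sites in overlapping genes. The deposited score is 0 throughout and, per the file headers, not meant for use, so only positions and gene IDs were read. Per the submitters' processing notes, the tools were STAR 2.7.11a, SAMtools 1.22.1, bedtools 2.31.1, UMI-tools 1.1.6, FastQC 0.12.1 and MultiQC 1.31, with GRCm38.p5 and GRCh38.p14 as builds. The site caller, or the way libraries of 1 day were joined, is not given in the sources used here.

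Symbols were assigned to Ensembl IDs by position, through RefSeq genes (GRCm38.p6) of like class that held 80% or more of the ID's sites, which named 7480 of 7949. Site numbers were scaled by list length, and ratios of shares carry exact conditional binomial 95% intervals. A gene was called at 10 or more sites over both lists and a ratio of at least 2 or at most 0.5, a rule of size in place of a test. Log2 ratios had a pseudocount of 1, which draws genes with few sites towards negative values for day 10. The intervals, calls and overlaps were tested on simulated data.

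Named genes are, by family, up to 5 with most sites, every called member, the 10 with most positions found on all 3 days (7 members tied for the tenth place, taken by symbol order), and members at 0 on 1 day and at least 10 on another. Others are given by number. The values of 1 Prpf gene that this rule names are not reported here, and it stays in the counts. The windows, the further genes named and the sequences shown were chosen after their values were seen. Members and lists were chosen with earlier results of these data known. Alternatives changed the counting unit, scaling, naming, thresholds and overlap. Python 3.11.15, NumPy 2.4.6, pandas 2.3.3, SciPy 1.17.1 and matplotlib 3.10.9 were used.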

Additional observations from a re-analysis of the deposited data

How the results depend on the processing

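Of 90 alternative values, 64 moved by less than their limit and 26 by more. Chosen after seeing the data, short members scaled by other short genes gave 0.949 for day 10 over day 0 and 0.895 for day 10 over day 3, and 1.06 for day 3 over day 0, on the other side of 1 from 0.993 with an interval that includes 1 in both. The other alternatives for these shares ran from 0.708 to 0.768 and from 0.716 to 0.773. Calls depended on thresholds. At these other folds and site limits all named genes were not counted, so the numbers describe members only and have no background beside them. At a fold of 1.5, smaller shares numbered 16 for day 10 over day 0, 17 for day 10 over day 3 and 2 for day 3 over day 0, with 7 larger in the last. At a fold of 3 these numbers were 2, 3, 0 and 0. With at least 20 sites, day 10 over day 0 had 0 larger and 2 smaller, day 10 over day 3 had 1 larger and 0 smaller, and day 3 over day 0 had 1 larger. With at least 5 sites, day 3 over day 0 had 6 larger and 2 smaller. By the interval, larger shares numbered 0 for day 3 over day 0 and 0 for day 10 over day 3. Identical sites were found again at 22.5%, 21.8% and 14.3%. As medians over genes, the first part of the span held 5.85%, 16.4% and 17.6% of sites on days 0, 3 and 10, and the last part 40% on day 0, so pooled positions rest on genes with many sites. No paired analysis was possible because each list pools the 5 libraries of a day and carries no replicate numbers, and leaving out a library was not possible for the same reason. Depth is unknown, so site numbers cannot be weighed by it.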
